A study of Mus musculus and Homo sapiens with 4 samples.

Results

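The interferon-inducible GTPases compared here were 10 genes of mouse embryonic fibroblasts (MEFs): Gbp2, Gbp3, Gbp6 and Gbp7 of the guanylate-binding protein family, Irgm1, Irgm2, Igtp and Iigp1 of the immunity-related GTPase family, and Mx1 and Mx2. They were found by symbol among the 23329 annotated entries of the MEF expression tables, where each of the 10 symbols stood on 1 entry. The MEFs came from C57BL/6 embryos at E13.5 and were cultured at passages 2 to 3, either wild type (WT) or lacking the nuclear long noncoding RNA Neat1 (NEAT1 KO). Poly-A+ RNA of each genotype was sequenced as 1 library. The labels name no interferon or other treatment of the cells, and the sources used here do not say how many embryos or lines stood behind a library. The other 2 of the 4 libraries of the series came from the human prostate cancer line VCaP, with and without added oestrogen receptor alpha. With 1 library per genotype, no difference below has a replicate check. Differences are given as values without a test, and they compare these libraries, not the genotypes.

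Levels are in RPKM, read numbers scaled to the length of the transcript and the size of the library. The log2 ratio is that of NEAT1 KO to WT after 1 RPKM was added to each value, which understates the change of genes with low values. The lowest values were spaced in steps that placed the libraries at about 62900000 reads (WT) and 59300000 reads (NEAT1 KO). From this depth, the ratio of the RPKM values themselves, called the unadjusted ratio, received an exact 95% interval on the estimated fragments, which covers counting error only. Neat1 measured 29.5 RPKM in WT and 2.01 RPKM in NEAT1 KO, a log2 ratio of -3.34. The median log2 ratio was 0 over all entries and -0.06 over the 10888 entries that reached 1 RPKM in WT and in NEAT1 KO alike.

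The libraries also differed in sex-linked transcripts. Xist, the RNA of the inactive X chromosome, measured 28.6 RPKM in WT and 0.05 RPKM in NEAT1 KO. The Y-linked genes Ddx3y, Eif2s3y, Kdm5d and Uty lay between 0 and 0.0174 RPKM in WT and between 0.753 and 6.30 RPKM in NEAT1 KO. Genotype, sex of the embryos and culture cannot be told apart with these libraries, and this holds for each difference below.

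Interferons bind receptors at the cell surface, and the attached Janus kinases activate transcription factors that move to the nucleus. A complex that holds STAT2 and IRF9 binds interferon-stimulated response elements (ISRE), while gamma-activated sites (GAS) are typical of the response to interferon gamma. The GTPases studied here are among the transcripts best known for rising after interferon in fibroblasts, macrophages and epithelia. Their proteins act inside the cell: guanylate-binding proteins and immunity-related GTPases gather on the vacuoles of parasites and bacteria such as Toxoplasma and Chlamydia, and Mx proteins block viruses.

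To show what the promoters share, the bases before the annotated start of each gene were taken from RefSeq (GRCm38.p6) and searched on both strands for the ISRE core, written as GAAA, any 2 bases and GAAA, and for the GAS, written as TTC, any 3 bases and GAA. Windows from 250 bases before to 50 bases after the start were given for 6 of the 10 genes, namely Gbp2, Gbp3, Gbp7, Irgm1, Irgm2 and Igtp. In the sequences printed with each family, each run covers the 110 bases just before the start, 5′ to 3′ on the strand of the gene, and capitals mark the motif matches. On the opposite strand an ISRE core reads TTTC, any 2 bases and TTTC. The RefSeq start lies upstream of the start in the expression tables for Irgm1 and, by a few bases, for Gbp3 and Gbp7. A match is a description of the letters, and no binding was measured.

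Among the guanylate-binding proteins, Gbp7, Gbp3 and Gbp2 follow each other on the plus strand of chromosome 3. They are shown because their ISRE cores lay at like distances from the start, from 30 to 59 bases before it. The stretches cover chr3:142530226-142530335 for Gbp7, chr3:142559934-142560043 for Gbp3 and chr3:142620553-142620662 for Gbp2.
Gbp7: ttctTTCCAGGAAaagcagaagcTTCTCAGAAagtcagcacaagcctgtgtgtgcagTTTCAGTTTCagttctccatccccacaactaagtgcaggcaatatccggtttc
Gbp3: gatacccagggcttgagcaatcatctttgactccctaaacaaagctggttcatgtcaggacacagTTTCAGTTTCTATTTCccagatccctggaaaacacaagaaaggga
Gbp2: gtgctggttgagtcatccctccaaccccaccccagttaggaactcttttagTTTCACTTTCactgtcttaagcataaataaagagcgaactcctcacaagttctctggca
In each of the 3 genes the ISRE core stood on the opposite strand. It lay at -53 to -44 in Gbp7, at -59 to -50 in Gbp2, and at -45 to -36 and, overlapping it, -39 to -30 in Gbp3. Gbp7 also held 2 GAS matches, at -106 to -98 and at -87 to -79. Gbp2 and Gbp3 held no GAS. Gbp3 has a second annotated start, downstream of the one shown, whose window held neither motif.

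Guanylate-binding proteins are dynamin-like GTPases that coat pathogen vacuoles and cytosolic bacteria. All 4 had higher values in NEAT1 KO than in WT, 3 with a log2 ratio above 1 and 2 above 2, and their summed level was 4.27 RPKM in WT and 36.0 RPKM in NEAT1 KO. Of all 23329 entries, 0.977% lay above 1 and 0.223% above 2. Among the 11463 entries with at least 1 RPKM in a library, these shares were 1.99% and 0.454%. Gbp3, whose transcript of 11 exons spans chr3:142560052-142573212, measured 0.739 RPKM in WT and 14.3 RPKM in NEAT1 KO. Its log2 ratio of 3.13 was the highest of the 10 GTPases and ranked 13 of 23329 entries, and the unadjusted ratio was 19.3 (interval 15 to 25.5). Gbp3 thus stood below 1 RPKM in WT and close to Gbp2 in NEAT1 KO. In bulk RNA, more cells with a transcript and more transcript per cell cannot be told apart.

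Gbp2, a prenylated member that is anchored to membranes and has been studied for control of Toxoplasma, spans chr3:142620663-142638008 with 11 exons. It measured 2.65 RPKM in WT and 16.7 RPKM in NEAT1 KO, with a log2 ratio of 2.27 and an unadjusted ratio of 6.29 (interval 5.42 to 7.31). Gbp2 was the only guanylate-binding protein among the 10 genes above 1 RPKM in WT. Gbp7, at chr3:142530338-142550083 with 11 exons, measured 0.753 RPKM in WT, near the WT level of Gbp3, and 3.81 RPKM in NEAT1 KO. Its log2 ratio of 1.46 and unadjusted ratio of 5.06 (interval 4.19 to 6.15) were lower than those of Gbp3, and the intervals of their unadjusted ratios did not overlap. These intervals cover counting error only. Of the 50-base stretches of the transcripts, 4.88% for Gbp3 and 12.8% for Gbp7 also occur in another gene. Gbp6 lies in a second cluster, on the minus strand at chr5:105270702-105293699. It measured 0.127 RPKM in WT, an estimated 20.9 reads, and 1.24 RPKM in NEAT1 KO, with a log2 ratio of 0.99 and an unadjusted ratio of 9.70 (interval 5.25 to 21.7). Of the 50-base stretches of the Gbp6 transcript, 90.2% also occur in another annotated gene, mostly Gm43302, so its value is uncertain.

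Irgm1, Igtp and Irgm2 are on chromosome 11, Irgm1 on the minus strand and Igtp and Irgm2 side by side on the plus strand. They are shown because each held an ISRE core on its own strand and because Igtp and Irgm2 share most of the bases around theirs. The stretches cover chr11:48871421-48871530 for Irgm1, chr11:58199446-58199555 for Igtp and chr11:58214867-58214976 for Irgm2.
Irgm1: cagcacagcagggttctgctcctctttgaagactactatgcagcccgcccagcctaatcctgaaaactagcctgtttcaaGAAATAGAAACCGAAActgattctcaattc
Igtp: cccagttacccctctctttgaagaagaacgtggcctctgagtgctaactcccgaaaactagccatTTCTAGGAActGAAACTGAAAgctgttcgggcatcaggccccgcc
Irgm2: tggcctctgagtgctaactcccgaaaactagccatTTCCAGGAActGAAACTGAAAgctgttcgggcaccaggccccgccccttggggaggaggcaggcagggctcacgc
In Irgm1, ISRE cores at -30 to -21 and -24 to -15 overlapped and no GAS was found. In Igtp a GAS at -45 to -37 was followed by an ISRE core at -34 to -25, and in Irgm2 the same order was found at -75 to -67 and -64 to -55. The motifs of Irgm2 thus lay 30 bases farther from the start than those of Igtp. With the stretches shifted by that distance, 78 of the 80 overlapping bases (97.5%) were identical. Over the whole windows shifted in the same way, 184 of 270 bases (68.1%) were identical. A GAS that starts 11 bases before an ISRE core on the strand of the gene occurred in 5 of 32851 windows (0.0152%), those of Igtp, Irgm2, Tgtp1, Tgtp2 and Gm12185, all of them immunity-related GTPases. The spacing counted was that of Igtp and Irgm2 themselves, so its rarity is a description and gives no separate support.

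**Figure D1:**
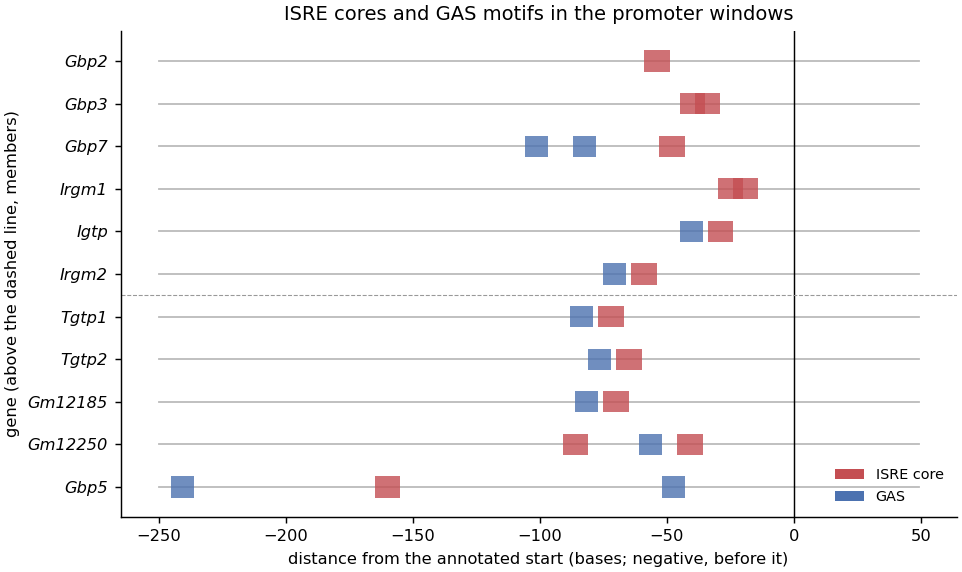
Positions of ISRE core and GAS matches in the promoter windows of 6 of the GTPases, in bases from the annotated start (horizontal axis), 1 line per gene. Each of the 6 genes above the line has an ISRE core within the 110 bases before the start, and of these Gbp7, Igtp and Irgm2 have GAS matches upstream of theirs.

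Counted by gene, the ISRE core was found in 6 of the 6 GTPases with a window, against 1079 of 27025 genes (3.99%). Within the 110 bases before a start it was found in 6 of 6, against 348 genes (1.29%). The GAS was found in 3 of 6, against 2582 genes (9.55%), and both motifs in 3 of 6, against 146 genes (0.54%). A gene counts here when any of its windows holds the motif. The 3 genes of the guanylate-binding and immunity-related families without a GAS match were Gbp2, Gbp3 and Irgm1, whose log2 ratios were 2.27, 3.13 and 1.11. The genes with a GAS match, Gbp7, Igtp and Irgm2, had log2 ratios of 1.46, 2.26 and 2.33, so the ranges of those with and without a match overlapped.

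Immunity-related GTPases fall into regulators, the Irgm proteins, which sit on the membranes of the cell itself, and effectors such as Iigp1, which load onto and break the vacuoles of parasites. All 4 genes had higher values in NEAT1 KO, each with a log2 ratio above 1 and 3 above 2, and their summed level was 25.4 RPKM in WT and 82.9 RPKM in NEAT1 KO. Irgm1, at chr11:48865249-48871346 with 3 exons, measured 19.6 RPKM in WT and 43.5 RPKM in NEAT1 KO. This gave a log2 ratio of 1.11 and an unadjusted ratio of 2.22 (interval 2.09 to 2.37). Irgm1 had the highest level of the 10 GTPases in both libraries and the lowest unadjusted ratio.

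Igtp (also called Irgm3), at chr11:58199556-58207592, measured 2.91 RPKM in WT and 17.8 RPKM in NEAT1 KO, with a log2 ratio of 2.26 and an unadjusted ratio of 6.09 (interval 5.22 to 7.18). Irgm2, at chr11:58214977-58222783, measured 2.56 RPKM in WT and 16.9 RPKM in NEAT1 KO, with a log2 ratio of 2.33 and an unadjusted ratio of 6.58 (interval 5.80 to 7.50). These neighbours were alike in level and in ratio, and the intervals of their unadjusted ratios overlapped. Gbp2, on chromosome 3, had like values, at 2.65 and 16.7 RPKM with an unadjusted ratio of 6.29 (interval 5.42 to 7.31). Whether the stretch shared by Igtp and Irgm2 bears on their levels was not tested. Of the 50-base stretches of their transcripts, 12.3% for Igtp and 6.86% for Irgm2 also occur in another gene, mostly each other, so a small part of the reads could have been given to either.

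Iigp1 (Irga6), the effector of the group, is at chr18:60376029-60392629 on the plus strand. It measured 0.305 RPKM in WT and 4.70 RPKM in NEAT1 KO, with a log2 ratio of 2.13. Its unadjusted ratio of 15.4 (interval 10.6 to 23.0) was above those of the 3 regulators, with no overlap of the intervals. The effector thus stood lowest of the 4 in both libraries, below each regulator.

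Mx1 and Mx2 encode large dynamin-like GTPases that block viruses, Mx1 of rodents in the nucleus and Mx2 in the cytoplasm. C57BL/6 mice, like most laboratory strains, carry disrupted alleles of both, and RefSeq lists both loci as transcribed pseudogenes, so the values describe RNA and not protein. Mx2, on chromosome 16 at chr16:97536081-97560901 on the plus strand with 14 exons, measured 0.261 RPKM in WT and 4.21 RPKM in NEAT1 KO. The log2 ratio was 2.05 and the unadjusted ratio 16.1 (interval 10.2 to 26.6). Mx1, at chr16:97447035-97462906 on the minus strand, measured 0.0149 RPKM in WT and 1.02 RPKM in NEAT1 KO, with a log2 ratio of 1.00. Its WT value stands for an estimated 2.52 reads, 1 fragment, so the unadjusted ratio of 68.9 had an interval of 15.2 to 3480. Mx1 was therefore near the limit of detection in WT and detected at about 1 RPKM in NEAT1 KO.

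**Figure D2:**
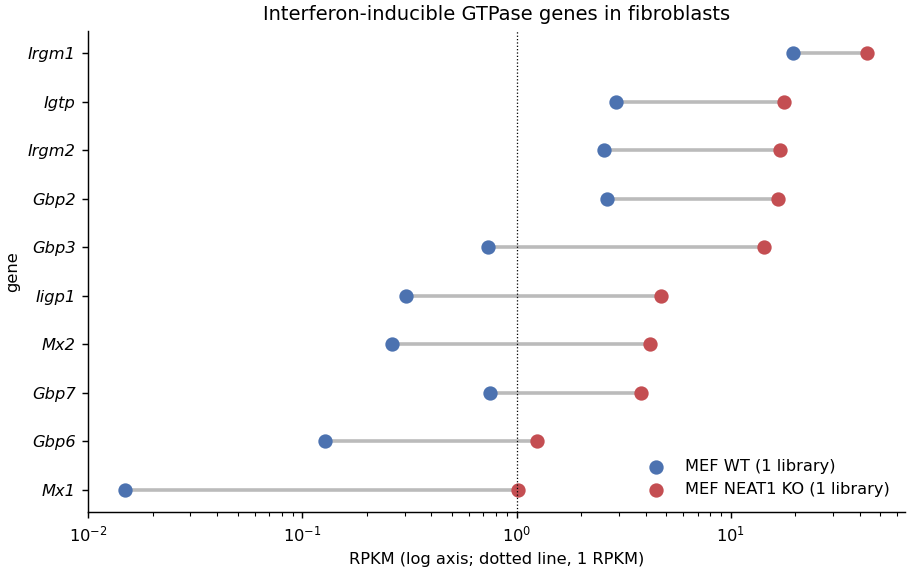
Level of each GTPase in the WT and NEAT1 KO libraries, in RPKM on a log axis, 1 point per library and gene. All 10 genes are higher in NEAT1 KO, from Irgm1 at 19.6 and 43.5 RPKM to Mx1 at 0.0149 and 1.02 RPKM.

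Across the 10 GTPases, each value was higher in NEAT1 KO, 8 log2 ratios were above 1, 6 were above 2 and none was below -1, where 0.334% of all entries lay. The log2 ratios ran from 0.99 to 3.13 with a median of 2.09, against a median of 0 over all entries, and 9 of the 10 lay among the highest 1% of entries. Mx2 at 2.05 was the lowest of those above 2 and Gbp7 at 1.46 the next below. Gbp6 and Mx1 lay just under 1 on this scale, although their unadjusted ratios of 9.70 and 68.9 were above the median of the 10, which was 8.14. Centring the ratios on the median of expressed entries placed both just above 1, at 1.05 for Gbp6 and 1.05 for Mx1.

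**Figure D3:**
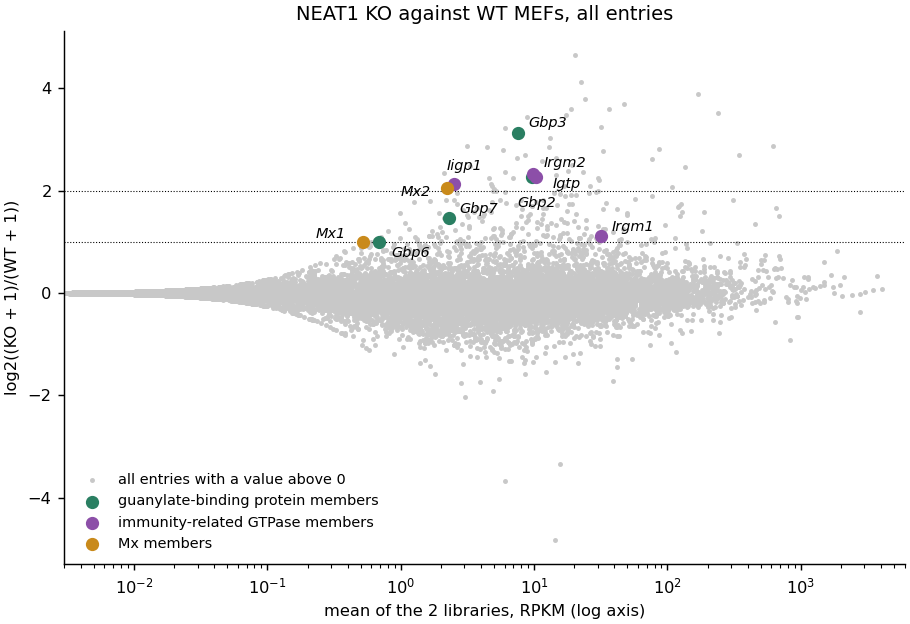
Log2 ratio of NEAT1 KO to WT (vertical axis, 1 RPKM added) against the mean of both libraries in RPKM (log axis) for all entries with a value above 0 in grey and the 10 GTPases in colour by family. All 10 lie on the upper side, 6 above the line at 2, and the added 1 RPKM narrows the range of ratios at low levels.

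In WT, 4 of the 10 genes reached 1 RPKM (Irgm1, Igtp, Gbp2 and Irgm2). In NEAT1 KO all 10 did. The median level was 0.746 RPKM in WT and 9.48 RPKM in NEAT1 KO, and the sum was 29.9 and 124 RPKM. Irgm1 held 65.5% of that sum in WT and 35.1% in NEAT1 KO, so the other 9 genes together made up the smaller part in WT and the larger part in NEAT1 KO. In NEAT1 KO the order from high to low was Irgm1, Igtp, Irgm2, Gbp2, Gbp3, Iigp1, Mx2, Gbp7, Gbp6 and Mx1. Igtp, Irgm2 and Gbp2 lay between 16.7 and 17.8 RPKM, and Iigp1, Mx2 and Gbp7 between 3.81 and 4.70 RPKM. Without replicates, the order within each of these groups cannot be told apart from the spread between libraries. Over the 10 genes the rank correlation (Spearman's rho) of WT and NEAT1 KO levels was 0.92, and that of the WT level and the unadjusted ratio was -0.82. Both are descriptions of genes that share the same libraries, and the WT value enters both terms of the second.

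The 5 other entries with a mean of at least 1 RPKM whose log2 ratio was nearest the median of the GTPases were chosen by that rule over the 2 libraries. Stat2, a part of the complex that binds the ISRE, measured 5.75 RPKM in WT and 27.8 RPKM in NEAT1 KO, a log2 ratio of 2.10. Ptx3, a soluble pattern recognition protein, measured 41.0 and 176 RPKM, a log2 ratio of 2.07. Serpina3g, D14Ertd668e and Slco4a1 had log2 ratios of 2.08, 2.09 and 2.13.

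Of 22 further genes of the guanylate-binding, immunity-related and giant interferon-inducible GTPases, 19 had an entry. None of the 19 had a log2 ratio above 1, which is close to the share of all entries (0.977%). The median of the 19 was 0.02 and their range -0.11 to 0.93, with 12 of the 19 above 0. Their levels were low throughout: Gm4951 alone reached 1 RPKM, with 0.0964 RPKM in WT and 1.08 RPKM in NEAT1 KO. For the genes listed next, the unadjusted ratio shows what the added 1 RPKM hides. Gbp5, which is known for promoting inflammasome assembly, measured 0.0398 RPKM in WT and 0.984 RPKM in NEAT1 KO, with a log2 ratio of 0.93 and an unadjusted ratio of 24.7 (interval 8.91 to 88.6). Gm4841 measured 0.0225 and 0.614 RPKM, with an unadjusted ratio of 27.3 (interval 7.27 to 234). Gbp9 measured 0.131 and 0.728 RPKM, with an unadjusted ratio of 5.56 (interval 3.36 to 9.86).

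The unadjusted ratios of Gbp5, Gm4841 and Gbp9 were thus in the range of the 10 GTPases, on few reads. Other further family genes lay below the lowest ratio of the 10, which was 2.22. Among these were Gvin1 and Gm4070 at 1.35, Gm12185 at 1.05, 9930111J21Rik1 at 0.849 and Gm5431 at 0.532. Tgtp2, a T cell-specific GTPase that acts as an effector, measured 0.170 RPKM in WT and 0.805 RPKM in NEAT1 KO, but 90.6% of its 50-base stretches occur in another gene, so it is uncertain. The same holds for its close copy Tgtp1, at 0.0227 and 0.199 RPKM (91.4% of stretches), and for the giant GTPase entries Gvin1 and Gm4070, which cover the same locus and were each listed at 0.219 and 0.296 RPKM. Gm12250 measured 0.0355 and 0.182 RPKM, with a log2 ratio of 0.19, and Gm12185 0.0364 and 0.0383 RPKM. Gm5431 and 9930111J21Rik1 were lower in NEAT1 KO, at 0.189 and 0.101 RPKM for Gm5431 and at 0.756 and 0.641 RPKM for 9930111J21Rik1, and both intervals of the unadjusted ratio, 0.21 to 1.24 and 0.611 to 1.16, included 1. Of their 50-base stretches, 35.6% for Gm5431 and 79.3% for 9930111J21Rik1 occur in another gene, so these values are uncertain too. For 9930111J21Rik2 and Gbp10 the shares were 97.9% and 82.5%. Gbp1 (Gbp2b in RefSeq), Gbp8, Gm8989 and 9930111J21Rik2 were listed at 0 in both libraries. Gbp4 measured 0.00703 and 0.0213 RPKM, an estimated 2.01 reads in WT, and Gbp10 and Gbp11 were each at 0 in one library and at about 2 reads in the other.

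**Figure D4:**
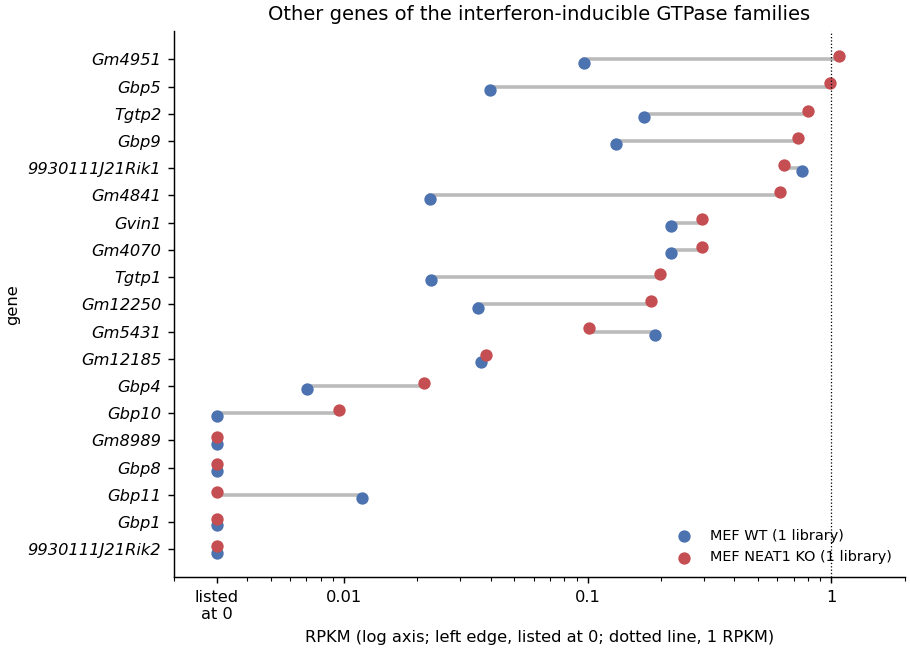
Levels in WT and NEAT1 KO in RPKM for the further genes of the guanylate-binding protein, immunity-related GTPase and related families with an entry. Gm4951 is the one that reaches 1 RPKM, and Gbp5 reaches 0.984 RPKM in NEAT1 KO.

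Dynamin-related GTPases that are not known as interferon-inducible served as a comparison within the superfamily, with Irgq, a family member without interferon control. Of 13 listed, 12 had an entry and 10 reached 1 RPKM. None had a log2 ratio above 1 or below -1, which is close to the share of all entries (0.977% and 0.334%), and the median was -0.06. Irgq had a log2 ratio of 0.13. Dnm2, which pinches off endocytic vesicles, measured 40.1 RPKM in WT and 37.7 RPKM in NEAT1 KO, and the mitochondrial fusion protein gene Mfn2 28.5 and 28.1 RPKM. The lowest log2 ratio was -0.46 for the mitochondrial fission gene Dnm1l and the highest 0.24 for Dnm1.

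The genes around the GTPases on the chromosome gave a further comparison. Entries were counted when they started within 200 kb of the start of any of the 10 genes. The further family genes were left out, among them Gbp5 and Gm4951, which start within that distance. Of the 26 entries so counted, 19 had at least 1 RPKM in a library, and none had a log2 ratio above 1 or below -1. This is close to the share of all entries, 0.977% above 1 and 0.334% below -1. On chromosome 3, Pkn2 measured 8.88 RPKM in WT and 6.11 RPKM in NEAT1 KO, a log2 ratio of -0.47 and the lowest of the 26, and Gtf2b 16.4 and 17.4 RPKM. The highest was 2010002N04Rik, near Iigp1, with 15.5 and 28.2 RPKM and a log2 ratio of 0.83. Gnb2l1, near Irgm1, measured 1120 and 1190 RPKM. The 26 include F830016B08Rik, near Iigp1, which is itself known as an immunity-related GTPase but was not on the family list, and which measured 0.0484 and 0.428 RPKM.

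The genes of the interferon pathway were taken in the order of signalling. Of 12 ligand genes listed, 10 had an entry and none reached 1 RPKM. Ifng, the gene of interferon gamma, was listed at 0 in both libraries, and Ifnb1, the gene of interferon beta, at 0 in WT and 0.0758 RPKM in NEAT1 KO. Of the receptors and kinases, 9 of 10 had an entry, with a median of 0.21. None had a log2 ratio above 1 or below -1, which is close to the share of all entries (0.977% and 0.334%). Ifngr1 measured 26.3 RPKM in WT and 30.5 RPKM in NEAT1 KO. Jak1 measured 42.2 and 44.4 RPKM. Receptor and kinase transcripts were therefore present in both libraries, while ligand transcripts were at or near 0.

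Among the transcription factors of the pathway, Irf7, which drives a second wave of type I interferon genes, measured 5.24 RPKM in WT and 58.1 RPKM in NEAT1 KO, a log2 ratio of 3.24. Irf9, the DNA-binding part of the complex with STAT2, measured 10.5 and 29.5 RPKM, a log2 ratio of 1.40. Irf9 and Stat2, which act together at the ISRE, were thus both above 1. Irf1, a factor of the interferon gamma response, measured 4.39 and 7.50 RPKM, a log2 ratio of 0.66, and Irf3, which is activated without new transcription, 21.5 and 21.6 RPKM.

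Of 6 inhibitors of the pathway, Usp18, which silences the type I receptor, measured 5.85 RPKM in WT and 88.0 RPKM in NEAT1 KO, a log2 ratio of 3.70. Socs3 measured 7.87 and 21.3 RPKM, a log2 ratio of 1.33. Of 13 genes of the interferon gamma response, 5 were above 1 and none above 2, where 0.977% and 0.223% of all entries lay. The median of the 13 was 0.64, or 1.33 among those with at least 1 RPKM in a library. The 5 above 1 were Psmb9 (log2 ratio 1.66), Psmb8 (1.61), Tap1 (1.54), Cd274 (1.12) and Nlrc5 (1.06). They serve antigen presentation or, in the case of Cd274, restrain T cells. Ciita, the switch of class II antigen presentation, measured 0.035 and 0.022 RPKM, and Cxcl9, a chemokine typical of interferon gamma, 0.033 and 0.162 RPKM. Also below 1 were Nos2, at 0.0551 and 0.953 RPKM (log2 ratio 0.89), and H2-Ab1, at 0.716 and 1.67 RPKM (0.64). Of the 13 genes, 10 had a log2 ratio above 0.

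The last lists held genes that place the GTPases on vacuoles or act after them. Of 14 genes for loading onto vacuoles, mainly ubiquitin and autophagy factors, Trim21 was above 1, with 1.78 RPKM in WT and 6.41 RPKM in NEAT1 KO, and the median was -0.03. Sqstm1, an adaptor of ubiquitin and autophagy, measured 247 and 218 RPKM, and Gabarap 220 and 226 RPKM. Atg5, which is needed for the loading of immunity-related GTPases, measured 8.84 and 9.24 RPKM. Of 9 inflammasome genes, Casp4, the sensor of bacterial lipopolysaccharide, was above 1 with 1.13 and 4.02 RPKM. The 5 genes of prenylation, the lipid anchor of some guanylate-binding proteins, had a median log2 ratio of 0.07. None lay above 1 or below -1, where 0.977% and 0.334% of all entries lay. Whether these lists differed from the GTPases beyond the spread between libraries was not tested.

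**Figure D5:**
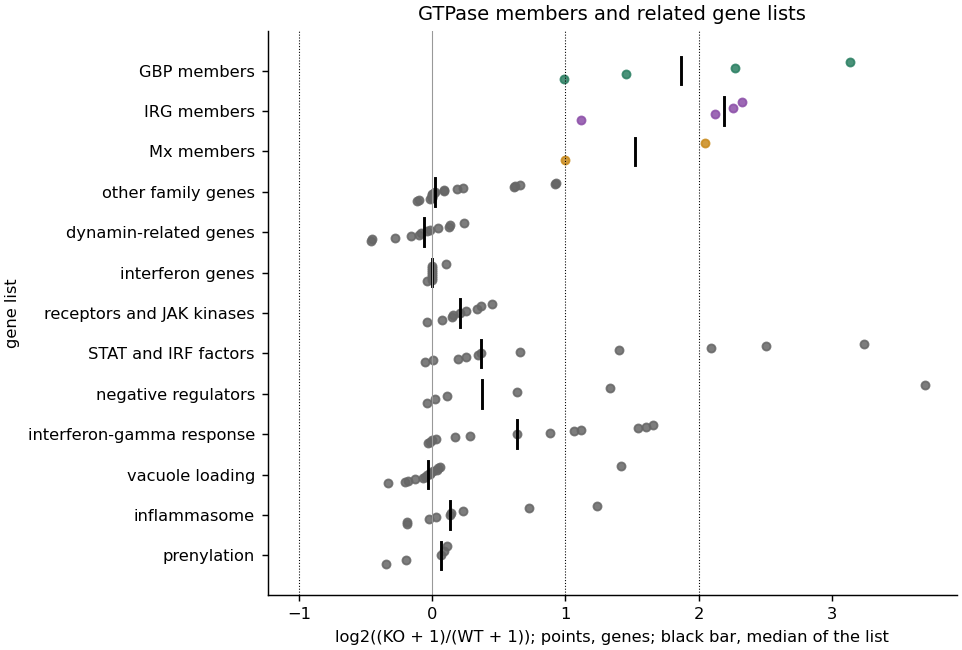
Log2 ratio of NEAT1 KO to WT for each gene of the GTPase, related and pathway lists, 1 point per gene, with the list's median marked. The 10 GTPases have a median of 2.09, the receptors and kinases 0.21 and the dynamin-related genes -0.06.

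The ISRE core was also counted in the promoters of entries outside the 10 GTPases. It was found in 7 of 32 such entries with a window and a log2 ratio above 2 (21.9%) and in 23 of 127 with a ratio from 1 to 2 (18.1%). Among expressed entries between -1 and 1 it was found in 254 of 7932 (3.20%). Of 9 further family genes with a window, 7 held the ISRE core and 5 held both motifs. None of them had a log2 ratio above 1, where 0.977% of all entries lay. The levels of these genes were low, and the added 1 RPKM understates their change. Among those with an ISRE core and a value above 0, unadjusted ratios ran from 0.849 for 9930111J21Rik1, whose value is uncertain, to 24.7 for Gbp5.

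The cell type given for the libraries was checked against marker lists. All 10 fibroblast markers reached 1 RPKM, with a summed level of 6480 RPKM in WT and 6460 RPKM in NEAT1 KO. The list was mixed. Of the 10 log2 ratios 8 were above 0, with 1.92, 1.64 and 1.51 for Lum, Dcn and Pdgfra. Fn1 (-0.56) and Vim (-0.36) were lower in NEAT1 KO, and Vim, at 3150 and 2450 RPKM, made up a large part of the sum. Macrophage markers moved in the same direction as the GTPases: each of the 8 with an entry was higher in NEAT1 KO. A log2 ratio above 1 was found for 3 of the 8, against 0.977% of all entries. The summed level of the 8 was 19.6 RPKM in WT and 49.5 RPKM in NEAT1 KO. Lyz2, Cd68 and Cd14 were those above 1, and Lyz2 measured 13.9 and 34.7 RPKM, while the leukocyte marker Ptprc measured 0.045 and 0.081 RPKM and Csf1r 0.521 and 0.775 RPKM. The part of these cells in the GTPase levels was not tested. Of 7 lymphoid and natural killer cell markers, 6 were listed at 0 in WT and 7 in NEAT1 KO. The summed levels of endothelial, epithelial and skeletal muscle markers were 1.14, 1.05 and 12.6 RPKM in WT and 0.558, 0.677 and 4.26 RPKM in NEAT1 KO. Most of each sum came from 1 gene: Kdr (1.01 and 0.397 RPKM), Krt18 (1.02 and 0.66 RPKM) and Acta1 (12.6 and 4.26 RPKM). Acta1 had a log2 ratio of -1.37, while the muscle genes Myod1, Myog and Ckm lay at or below 0.0225 RPKM.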

How the data were processed

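Poly-A+ RNA of MEF WT and MEF NEAT1 KO cells was sequenced as 1 library each. The authors deposited 1 table per library with an RPKM value for each annotated transcript entry. The submitters' processing notes name CASAVA 1.8 and the mouse build mm10, and the aligner and the counting program are not given in the sources used here. Differences were computed as log2 of (NEAT1 KO + 1 RPKM) over (WT + 1 RPKM), with 1 and 2 as limits. Read numbers were estimated from the step between low RPKM values multiplied by transcript length (GENCODE M21). Of 2072 WT and 2052 NEAT1 KO entries whose RPKM times kilobases was above 0 and below 0.2, 39.9% and 41.9% lay within 0.05 of a whole step, against 7.72% and 7.24% for the median of other steps. Intervals are exact binomial (Clopper-Pearson) intervals on fragments, taken as pairs of reads. Coordinates are those of the tables, counted from 1. Python 3.11.15, pandas 2.3.3 and scipy 1.17.1 were used, and the calculations were tested on simulated data. The GTPases and gene lists were chosen with earlier results of these data known. By rule, the text named the 10 GTPases, every further family gene with an entry, Neat1 and the 5 entries nearest in ratio. The rule also covered, of each pathway list, the genes past 1 or below -1 and those with the highest RPKM. Of the latter only some were named, and others, such as Ifngr2, Stat3, Gsdmd and the prenylation genes, were left out. Other genes, such as Atg5, Ciita, Cxcl9, Irf1, the markers and the neighbours at the ends of the range, were named after their values were seen. The alternatives were another pseudocount, a minimum level, centring, quantile normalization and 1 entry per symbol. Protein features are not analysed here, and 1 gene of the pathway lists is not reported here.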

Additional observations from a re-analysis of the deposited data

How the results depend on the processing

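The settings tried were a pseudocount of 0.1 RPKM, a minimum of 1 RPKM in a library, centring on the median of expressed entries, quantile normalization and 1 entry per symbol. Another pseudocount cannot turn the sign of a ratio, and the minimum and 1 entry per symbol left the values of the 10 GTPases as they were, so only centring and quantile normalization could have turned a direction, and neither did. With the pseudocount of 0.1 RPKM, 9 GTPases were above 2 and 10 above 1, and the ratios of 6 moved, to 4.10 for Gbp3, 2.55 for Gbp6, 2.20 for Gbp7, 3.57 for Iigp1, 3.29 for Mx1 and 3.58 for Mx2. With the same pseudocount 118 of all entries were above 2 and 500 above 1, and of the further family genes 7 were above 1 and 3 above 2. With the minimum of 1 RPKM the median of the further family genes was 0.92, since 1 gene was left, and the medians of the interferon gamma response and inflammasome lists were 1.33 and 0.72. With the pseudocount of 0.1 RPKM, 7 interferon gamma response genes and 3 inflammasome genes were above 1. With centring and with quantile normalization, 6 GTPases were above 2 and 10 above 1. No paired analysis was possible because there is 1 library per genotype. For the same reason no library could be left out. At the estimated depth, genes of a few reads in WT, such as Mx1, have a ratio that is poorly fixed.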

Other observations

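The human relatives of these GTPases were read in the VCaP libraries, 1 without and 1 with added oestrogen receptor alpha, in RPKM. GBP2 measured 7.26 and 0 RPKM and GBP3 1.32 and 0.035 RPKM. MX1 measured 0.277 and 0.444 RPKM and MX2 0.157 and 0.699 RPKM. IRGQ, which is not interferon-inducible, measured 7.44 and 1.81 RPKM, and IRGM, GBP5 and GBP7 were listed at 0 in both. These cells, RNA preparations and libraries differ from those of the MEFs, and levels are not compared between them.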
